A study of Mus musculus with 4 samples.

Results

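The mitochondrial ribosomal protein genes are the nuclear genes named Mrpl for the large subunit and Mrps for the small subunit, each with a number. Protein-coding genes of GENCODE M21 with such a symbol were taken on the mm10 genome, which gave 78 of 21755 protein-coding genes. Another 5 loci with such a symbol are annotated as pseudogenes and were not counted. By the current protein nomenclature, 51 of the 78 encode large-subunit proteins, among them Mrps30 and Mrps18a despite their names, and 26 encode small-subunit proteins. The last, Mrps36, keeps its symbol although its product is now assigned to the oxoglutarate dehydrogenase complex.

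ChIP-seq was done on neural stem cells of WT C57BL/6J mice at E12.5, cultured with EGF (20 ng/ml) and FGF (at 10 ng/ml). The 4 samples were a PHF2 ChIP (Cell Signaling antibody D45A2), an H3K9me2 ChIP (Abcam antibody ab1220) and 1 input for each, with 1 sample per group. No sample was mutant or treated, so the measurements are binding positions of 1 PHF2 peak list and 1 H3K9me2 region list in unperturbed cells. The inputs were not analysed here. Peak lists give neither read totals nor expression values, so the depth of the samples is unknown and the cell type was not checked against marker expression. With 1 sample per group there was no spread between cultures to set a difference against. No test was run, and every comparison is a description of these lists.

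Mitochondria have a ribosome of their own, which translates the few proteins encoded by mitochondrial DNA, all of them subunits of the oxidative phosphorylation complexes. Its proteins are encoded in the nucleus and imported. Many descend from bacterial ribosomal proteins, and others were added in the course of mitochondrial evolution. PHF2 is a histone demethylase whose PHD finger binds H3K4me3, a mark of active promoters. Its reported substrate is H3K9me2, histone H3 dimethylated on lysine 9, which marks silent chromatin.

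The promoters of 6 of these genes show the range of sequences behind the counts. Each is given 5′ to 3′ on the strand of the gene, from 250 bp before to 50 bp after the RefSeq start, on mm10, as supplied by RefSeq. Capitals mark matches to NRF1, ETS, YY1, ZBTB33 or SP motifs, on either strand. The first 3 genes had PHF2 peaks, with the highest (Mrpl48), the next (Mrps18b) and the fourth highest score (Mrpl57) among the 78. The Mrpl48 promoter lies at chr7:100608252-100608551, minus strand. It holds none of the motifs searched. The Mrps18b promoter (chr17:35916391-35916690, minus strand) holds NRF1, SP and ETS matches in that order. The Mrpl57 promoter (chr14:57825989-57826288, plus strand) holds an NRF1 match, 2 overlapping ZBTB33 matches and an ETS match.
Mrpl48: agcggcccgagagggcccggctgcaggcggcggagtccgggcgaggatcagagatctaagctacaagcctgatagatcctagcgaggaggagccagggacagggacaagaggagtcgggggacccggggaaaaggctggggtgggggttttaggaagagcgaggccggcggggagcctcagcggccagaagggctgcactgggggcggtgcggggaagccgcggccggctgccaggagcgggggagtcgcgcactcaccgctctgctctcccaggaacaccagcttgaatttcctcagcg
Mrps18b: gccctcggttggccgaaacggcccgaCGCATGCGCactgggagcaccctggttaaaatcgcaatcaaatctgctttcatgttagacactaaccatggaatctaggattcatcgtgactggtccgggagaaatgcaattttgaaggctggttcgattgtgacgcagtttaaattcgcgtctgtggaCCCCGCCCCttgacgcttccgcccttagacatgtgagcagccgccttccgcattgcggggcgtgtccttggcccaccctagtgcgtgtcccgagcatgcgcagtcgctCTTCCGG
Mrpl57: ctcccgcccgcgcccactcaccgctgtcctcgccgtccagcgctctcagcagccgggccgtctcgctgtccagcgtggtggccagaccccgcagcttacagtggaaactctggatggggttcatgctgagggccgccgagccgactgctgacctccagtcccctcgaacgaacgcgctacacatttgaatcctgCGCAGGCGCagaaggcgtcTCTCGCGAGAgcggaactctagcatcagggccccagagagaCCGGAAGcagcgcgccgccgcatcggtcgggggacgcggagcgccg

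The next 3 promoters had no PHF2 peak. Mrpl43 (chr19:45006393-45006692, minus strand) is shown for the highest CpG content among the genes without a peak, with 1 NRF1 and 2 ETS matches. Mrpl45 (chr11:97315466-97315765, plus strand) is shown for its 3 NRF1 matches. Mrps11 (chr7:78782881-78783180, plus strand) is shown because it is divergent to another gene of the family, Mrpl46, and it holds a YY1 match. A motif match therefore occurred with and without a peak, and the gene with the highest score had none in the promoter printed.
Mrpl43: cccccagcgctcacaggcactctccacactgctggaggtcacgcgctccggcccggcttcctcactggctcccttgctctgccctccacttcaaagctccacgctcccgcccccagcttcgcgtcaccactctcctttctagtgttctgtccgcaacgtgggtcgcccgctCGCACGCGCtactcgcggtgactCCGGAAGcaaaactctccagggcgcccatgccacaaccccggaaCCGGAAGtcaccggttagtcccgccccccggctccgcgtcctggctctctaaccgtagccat
Mrpl45: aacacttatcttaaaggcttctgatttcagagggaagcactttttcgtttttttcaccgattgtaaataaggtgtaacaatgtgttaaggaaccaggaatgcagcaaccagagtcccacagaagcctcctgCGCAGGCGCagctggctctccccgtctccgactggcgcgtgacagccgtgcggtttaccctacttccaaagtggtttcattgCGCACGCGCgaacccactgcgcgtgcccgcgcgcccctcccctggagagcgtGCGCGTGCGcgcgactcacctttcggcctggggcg
Mrps11: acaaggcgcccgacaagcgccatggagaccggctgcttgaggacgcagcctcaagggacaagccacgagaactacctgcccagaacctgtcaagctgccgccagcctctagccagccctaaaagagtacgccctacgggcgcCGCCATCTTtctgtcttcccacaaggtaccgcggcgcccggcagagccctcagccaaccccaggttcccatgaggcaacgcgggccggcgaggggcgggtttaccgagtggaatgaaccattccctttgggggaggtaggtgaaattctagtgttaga

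PHF2 lay at the promoters of most mitochondrial ribosomal protein genes. A promoter was the 1000 bp on either side of any transcript start, and a peak counted when it overlapped this window by 1 bp or more. Of the 78 genes, 48 had a PHF2 peak, 61.5% (95% Wilson interval 50.4% to 71.6%, which covers counting error only), beside 29.3% of all protein-coding genes. Each of the 48 genes had a peak of its own. None of the peaks was shared by 2 genes of the family. Over all genes the share with a PHF2 peak climbed with promoter CpG content, and these promoters were CpG-rich. Their median CpG observed/expected, the number of CpG dinucleotides over the number that the C and G content would give, was 0.511, beside 0.363 over all protein-coding genes. Other genes in the same deciles of CpG observed/expected, weighted by the number of family members per decile, had a peak in 46.5%, which corresponds to 36.3 of 78 genes. The family lay 15.1 percentage points above that share.

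The difference had the opposite sign among higher-scoring peaks. When only the higher-scoring 50% of the PHF2 list counted, 20.5% of the family, 24.9% of genes of like CpG content and 14.9% of all protein-coding genes had a peak. The family then stood -4.39 points from like genes but still above all genes. With GC content in place of CpG observed/expected the difference over all peaks was 28.7 points.

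**Figure D1:**
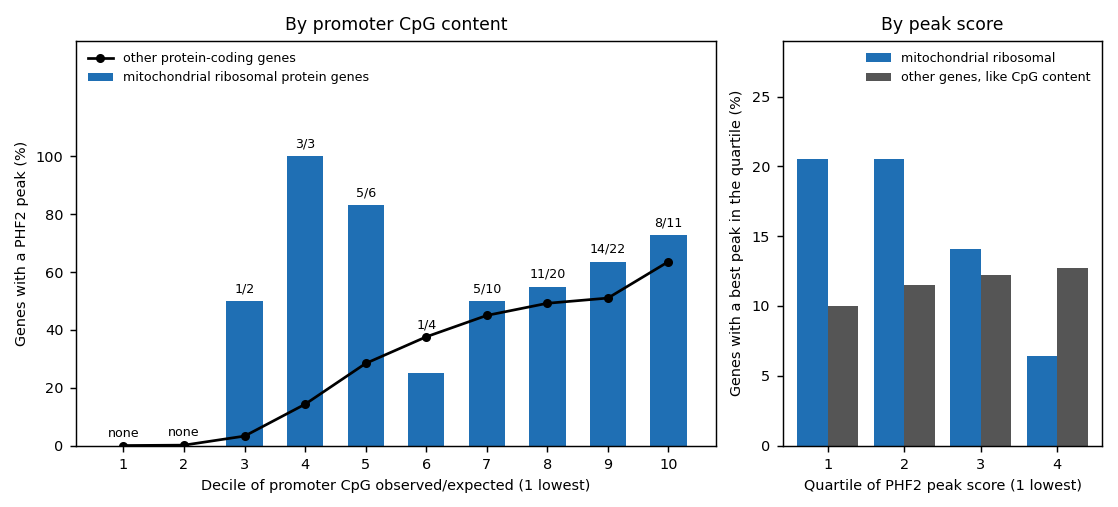
PHF2 peaks by promoter CpG content (left) and by peak score (right). Left: bars give the percentage of mitochondrial ribosomal protein genes with a peak in each decile of CpG observed/expected, with the counts above, and the line gives other protein-coding genes. Right: percentage of genes whose best peak lay in each quartile of the score. The bars of the family stand above those of like genes in the first 3 quartiles and below them in the highest.

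The difference from genes of like CpG content was larger in the lower deciles, where few genes of the family lie. In deciles 3 to 6, 10 of 15 had a peak (66.7%), beside 24.7% of other genes weighted in the same way. This rested on deciles 3 to 5, where 9 of 11 had a peak, since in decile 6 it was 1 of 4 (25%), beside 37.6% of other genes. In deciles 7 to 10, 38 of 63 had a peak (60.3%), beside 51.7%. Pooled in this way, the share of the family was much the same in both ranges. By single deciles it climbed from 25% in decile 6 to 72.7% in decile 10, beside 37.6% to 63.6% of other genes. Below decile 6, other genes had a peak in 3.27% in decile 3 to 28.4% in decile 5. Some genes in the lower deciles have many transcript starts whose windows were pooled. Mrpl30, for example, had a pooled CpG observed/expected of 0.339 and 0.707 in its CpG-richest window. With the CpG-richest window of each gene in place of the pooled ones, like genes had a peak in 41.9%.

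The authors' score, 1 value per peak on a scale that the sources used here do not give, ranked the peaks within the PHF2 list. The 48 peaks had a median score of 183 (range 101 to 763, middle 50% from 129 to 254). All 5764 peaks at protein-coding promoters had a median of 229.8 (middle 50% from 155 to 375). Of the 48, 16 (33.3%) lay in the higher-scoring 50% of the list, beside 50.3% of all promoter peaks. In the highest 10% there was 1 (2.08%), beside 9.96%. The peaks were also somewhat shorter, with a median of 1204 bp (886 to 2413 bp) beside 1309 bp. By quartile of score from the lowest up, the family had 16, 16, 11 and 5 genes, or 20.5%, 20.5%, 14.1% and 6.41% of the 78. Genes of like CpG content had 10.0%, 11.5%, 12.2% and 12.7%. PHF2 peaks at these promoters were thus frequent and of low to middle rank.

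The highest score, 763, belonged to Mrpl48, which encodes a large-subunit protein, at rank 366 of 5992 peaks. The peak (chr7:100606983-100609227) covers the start of Mrpl48 and that of Rab6a, a Golgi GTPase gene on the other strand. Mrps18b followed with 609.9 (chr17:35915748-35918013), in a peak shared with Ppp1r10, the gene of a nuclear regulator of protein phosphatase 1. Mrpl40 had 544 (chr16:18875907-18878319), shared with Hira, which encodes a chaperone of histone H3.3. The 5 highest scores all belonged to peaks shared with another gene, since Mrpl57 (436) shares its peak with the kinetochore gene Ska3 and Mrps27 (399) with Ptcd2, which encodes a mitochondrial pentatricopeptide protein. Mrpl41 (359) shares its peak with the lysophospholipase gene Pnpla7. A shared peak cannot be assigned to one of its genes. The highest scores of peaks at the gene alone were 354 at Mrps35, 336 at Mrpl15, 318 at Mrpl52 and 309 at Mrpl39.

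At the other end of the range, the lowest scores lay just above the lowest score in the list, 100.02. They were 101 at Mrps21, 103 at Mrps12, whose product belongs to the decoding centre, 104 at Mrpl9, 105 at Mrps23 and 108 at Mrpl3. The remaining peaks of the family lay between 112 and 298. The plot of peak scores shows every gene. Because the list ends at 100.02, a gene without a peak may have a lower signal or none, and these cannot be told apart.

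**Figure D2:**
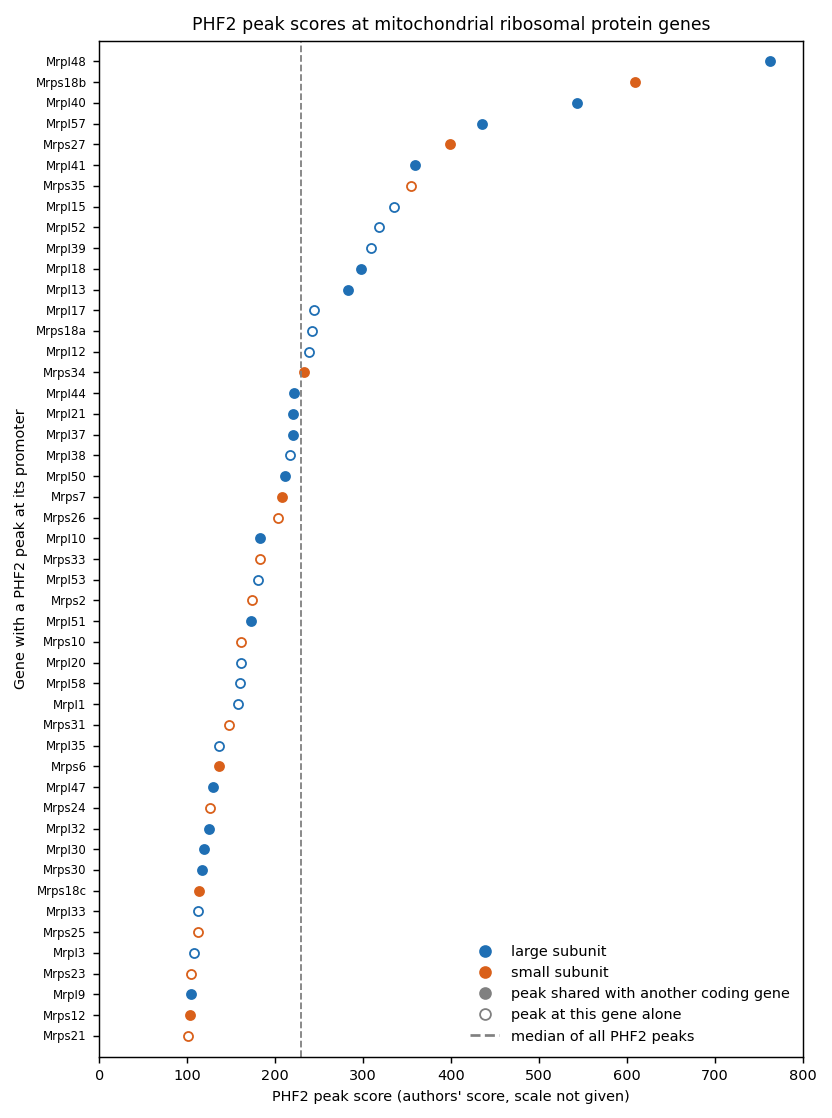
PHF2 peak scores (horizontal axis, the authors' score) at the 48 mitochondrial ribosomal protein genes with a peak, 1 point per gene, coloured by subunit. Filled points are peaks shared with another protein-coding gene, open points are peaks at the gene alone, and the dashed line is the median of all PHF2 peaks, 229. Of the 48 points, 16 lie to the right of that line.

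The 30 genes without a PHF2 peak comprised 20 large-subunit genes, 9 small-subunit genes and Mrps36. Those of the large subunit were Mrpl2, Mrpl4, Mrpl11, Mrpl14, Mrpl16, Mrpl19, Mrpl22, Mrpl23, Mrpl24, Mrpl27, Mrpl28, Mrpl34, Mrpl36, Mrpl42, Mrpl43, Mrpl45, Mrpl46, Mrpl49, Mrpl54 and Mrpl55. Those of the small subunit were Mrps5, Mrps9, Mrps11, Mrps14, Mrps15, Mrps16, Mrps17, Mrps22 and Mrps28. Their nearest PHF2 peak lay at a median of 51752 bp from any start. It lay within 5 kb for Mrpl22 (2786 bp), Mrpl49 (3151 bp) and Mrps16 (4075 bp), and between 5 and 10 kb for Mrpl45 (5071 bp) and Mrps17 (9054 bp). It lay beyond 100 kb for 10 genes and was farthest for Mrpl16 (730247 bp) and Mrpl19 (686449 bp). For most of these genes the peak list thus holds nothing near the promoter. Over the pooled windows, promoters with and without a peak had a median CpG observed/expected of 0.523 and 0.511. Their median GC content was 49.2% and 47.8%. Close medians do not make the 2 groups alike, since the share with a peak climbed from 25% in decile 6 to 72.7% in decile 10. In the CpG-richest window of each gene, the highest value was 0.93 with a peak (Mrps30) and 0.799 without (Mrpl43).

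Both subunits had PHF2 peaks in similar shares, and the share was larger for genes of mitochondrion-specific proteins than for genes of proteins with bacterial homologues. In the large subunit 31 of 51 genes had a peak (60.8%; like CpG content, 45.2%), and in the small subunit 17 of 26 (65.4%; like, 48.8%). The median score was 217 in the large subunit (104 to 763) and 161 in the small one (101 to 609.9), and the ranges overlapped widely. Origin was assigned by the unified protein nomenclature, from general knowledge and not from a file. In it Mrps18a and Mrps18b, paralogues of the bacterial-type Mrps18c, have mitochondrion-specific names. By origin, 24 of 46 genes with a bacterial homologue had a peak (52.2%, 95% Wilson interval 38.1% to 65.9%), and 24 of 31 mitochondrion-specific ones (77.4%, 60.2% to 88.6%). The intervals overlap. With Mrps18a and Mrps18b counted as bacterial-type the counts were 26 of 48 (54.2%) and 22 of 29 (75.9%). Genes of like CpG content had peaks in 44.3% and 49.6%, and the median CpG observed/expected, 0.494 and 0.566, moved in the same direction as the peaks. Its part in the difference was not tested.

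Peak scores followed the same order, with a median of 147 at genes with a bacterial homologue and 221 at mitochondrion-specific ones. Of the bacterial-type genes, 5 of 24 peaks were in the higher-scoring 50% of the list, and of the mitochondrion-specific ones 11 of 24. The mitochondrion-specific genes of the small subunit had a peak in 9 of 10 cases, with Mrps22 as the exception. Those of the large subunit had one in 15 of 21. Among the bacterial-type genes the counts were 16 of 30 in the large subunit and 8 of 16 in the small one, and none of these 8 peaks reached the higher-scoring 50%. A divergent partner, which within the family went with higher scores, was present in 14 of 31 mitochondrion-specific genes (45.2%) and 15 of 46 genes with a bacterial homologue (32.6%). Its part was not tested.

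**Figure D3:**
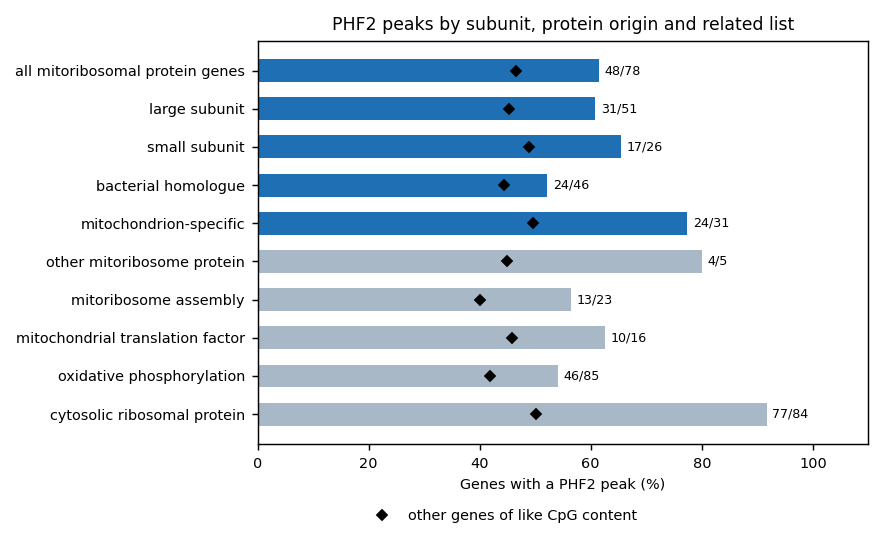
Percentage of genes with a PHF2 peak (bars, with counts) in the mitochondrial ribosomal protein genes, their subgroups (blue) and related lists (grey). Diamonds give the percentage among other genes of like promoter CpG observed/expected. Every bar ends to the right of its diamond, with the longest bar, 77 of 84, for cytosolic ribosomal protein genes.

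Shared divergent promoters were common in the family. A divergent partner was a protein-coding gene on the other strand with a start at most 1000 bp upstream. Of the 78 genes, 29 (37.2%) had one, beside 11.1% of all protein-coding genes. The distance between the starts had a median of 59 bp (26 to 935 bp) and was 100 bp or less for 21 of the 29. Over all genes with a partner the median was 106 bp. The 29 genes form 28 shared promoters, since Mrpl46 and Mrps11 are divergent to each other at 30 bp. Another 4 genes overlap the 5′ end of an opposite gene, namely Mrpl44 with Wdfy1, Mrpl47 with the complex I gene Ndufb5, Mrpl9 with Oaz3 and Mrps30 with B430218F22Rik. All 4 had a PHF2 peak.

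In the divergent promoters a peak either lay at both genes or at neither. A single peak lay at both genes and covered starts of both in all 19 promoters with a peak, and none of the 10 genes without a peak had a partner with one. At such distances the windows of both genes overlap, so a peak near the starts is counted at both. Beside the partners already named, the genes with a shared peak were paired with genes of varied function. Examples are Mrpl18 with the chaperonin gene Tcp1 (score 298), Mrpl13 with Mtbp (282), Mrps34 with Eme2 (233), Mrpl21 with the helicase gene Ighmbp2 (221) and Mrpl37 with Cyb5rl (221). Mrpl50 is paired with Zfp189, Mrps7 with Gga3, Mrpl10 with Lrrc46, Mrpl51 with the condensin gene Ncapd2, Mrpl32 with the proteasome gene Psma2, Mrpl30 with Mitd1, Mrps18c with the helicase gene Helq, and Mrps12 with Sars2, which encodes mitochondrial seryl-tRNA synthetase. Pairs without a peak were Mrpl43 with Twnk, the gene of the mitochondrial DNA helicase, Mrpl36 with the complex I gene Ndufs6, Mrpl49 with Fau, Mrpl14 with Tmem63b, Mrpl2 with Klc4, Mrpl27 with Eme1, Mrpl54 with Apba3, Mrps5 with Zfp661, and Mrpl46 with Mrps11. Partners with a role in mitochondria thus occur among the pairs with a peak and those without.

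With a partner 19 of 29 had a peak (65.5%), beside 63.7% of other genes of like CpG content that also have a partner. Without one 29 of 49 had a peak (59.2%), beside 41.6% of other such genes. The difference from like genes thus lay in the genes without a partner, where it was 17.5 points, and was small in those with one. Over all protein-coding genes the shares were 58.2% with a partner and 25.7% without. With the 4 genes whose 5′ ends overlap another gene counted as having a partner, the counts in the family were 23 of 33 (69.7%) with and 25 of 45 (55.6%) without. When like genes were drawn from the same CpG decile and partner status, they had a peak in 49.8%, and the family stood 11.7 points above them. The median score was 221 in genes of the family with a partner and 161 in those without, whereas over all protein-coding genes it was 221 with a partner and 236 without.

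The peaks sat on the transcript starts. All 48 covered a start of their gene, and the centres of all 48 lay within 500 bp of one, beside 89.9% of all promoter peaks. The median centre was 30 bp downstream of the gene's own nearest start, and 28 of 48 centres lay downstream (58.3%). Over all promoter peaks the median was 124 bp downstream and 74.9% lay downstream. There the distance was to the nearest start of any protein-coding gene at the peak. For shared peaks that start can be the partner's, so the values are not on the same measure. Peaks shared with another protein-coding gene made up 24 of the 48. They were those of the 19 divergent and 4 overlapping pairs and the peak at Mrps6, which also lies at the inositol transporter gene Slc5a3 and at Gm49711. Over all promoter peaks, each counted once, 14.5% were shared. That unit differs, since peaks picked through a list of genes include shared ones more readily. Counted by gene, a divergent partner was present in 39.6% of family genes with a peak and 22% of all genes with a peak. The 24 peaks at the gene alone had a median centre of 82.5 bp downstream, with 19 of 24 downstream. The 24 shared peaks had a median centre of -45.5 bp, that is upstream and toward the other gene, with 15 of 24 upstream. Shared peaks were longer (median 1349 bp beside 1132.5 bp) and had higher scores (216 beside 167), with overlapping ranges of 103 to 763 and 101 to 354. In 4 genes the peak did not cover the 5′-most annotated start but another one. In Mrpl33, Mrpl35 and Mrps24 it lay outside the window of the 5′-most start, and the RefSeq start lay inside the peak. In Mrpl20 it began 258 bp downstream of the 5′-most start, which is also the RefSeq start.

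**Figure D4:**
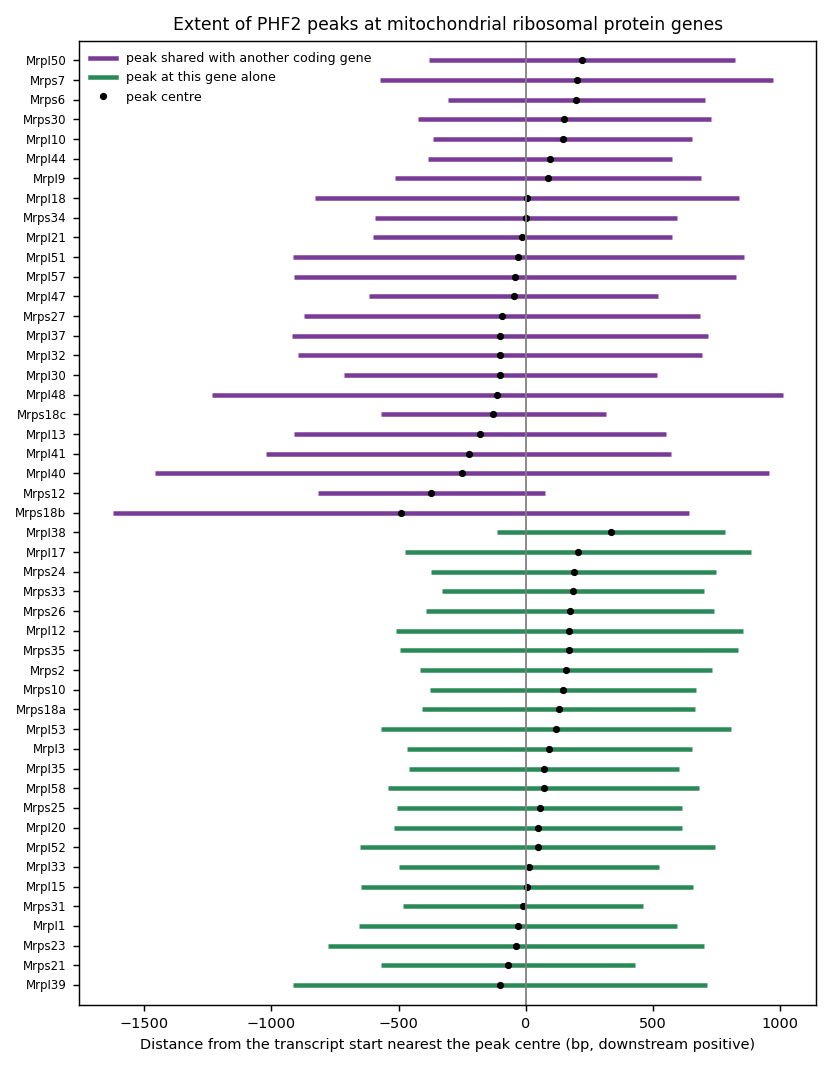
Extent of the PHF2 peak at each of the 48 genes (lines) and its centre (points), in bp from the transcript start nearest the centre, with downstream positive. Purple lines are peaks shared with another protein-coding gene and green lines peaks at the gene alone. The centres of 19 of 24 green lines lie downstream, and 15 of 24 purple ones lie upstream.

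The promoters were searched for 8 short motifs on both strands, in the window from 250 bp before to 50 bp after the RefSeq start. The motifs were NRF1 (GCGCNTGCG), ETS (CCGGAAG), YY1 (AAGATGGCG), CRE (TGACGTCA), ZBTB33 (TCTCGCGA), SP (GGGGCGGGG), E-box (CACGTG) and the CCAAT box (CCAAT), of which none contains another. RefSeq promoters matched 69 of the 78 genes and 16433 protein-coding genes. Those without one were Mrpl4, Mrpl13, Mrpl15, Mrpl19, Mrpl38, Mrpl54, Mrps28, Mrps34 and Mrps35. At least 1 motif was found in 63 of the 69. The share of all genes with at least 1 was not computed, and the CCAAT box alone was in 42.2% of them.

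ETS, NRF1 and YY1 motifs were more frequent in the family than in genes of like CpG content. The ETS motif, the letters bound by factors such as GABP (nuclear respiratory factor 2), was in 26 of 69 genes (37.7%), beside 13.4% of all genes and 18.1% of those of like CpG content. The NRF1 motif, bound by nuclear respiratory factor 1, was in 18 (26.1%), beside 10.1% and 15.2%. The YY1 motif was in 8 (11.6%), beside 2.25% and 3.01%. These were Mrpl35, Mrpl36, Mrpl37, Mrpl42, Mrps11, Mrps18a, Mrps24 and Mrps27. The other motifs were at or below the shares of all genes and of those of like CpG content, or close to them. SP letters were in 13 genes (18.8%), beside 18.0% of all genes and 25.4% of those of like CpG content. The CCAAT box was in 27 (39.1%), beside 42.2% and 41.8%, and the E-box in 5 (7.25%), beside 9.22% and 11.9%. CRE letters were in 2 genes, Mrpl16 and Mrpl49 (2.90%), beside 2.65% and 3.65%. ZBTB33 letters were in 1, Mrpl57 (1.45%), beside 1.64% and 2.44%.

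The ETS motif was in a larger share of the genes with a PHF2 peak than of those without. It was in 20 of 43 with a peak (46.5%) and 6 of 26 without (23.1%), and over all protein-coding genes the shares were 22.3% and 9.53%. For NRF1 the counts were 13 of 43 (30.2%) and 5 of 26 (19.2%), beside 17.7% and 6.76% over all genes. For YY1 they were 5 of 43 (11.6%) and 3 of 26 (11.5%), whereas over all genes the shares were 4.54% with a peak and 1.24% without. Among the promoters printed above, Mrps18b and Mrpl57 hold both ETS and NRF1 letters with a peak, and Mrpl43 holds both without one. Mrpl48 counts among the 26 genes with ETS letters through another of its 4 RefSeq promoters, which lies outside the PHF2 peak. A match is a run of letters and was not tested for binding.

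**Figure D5:**
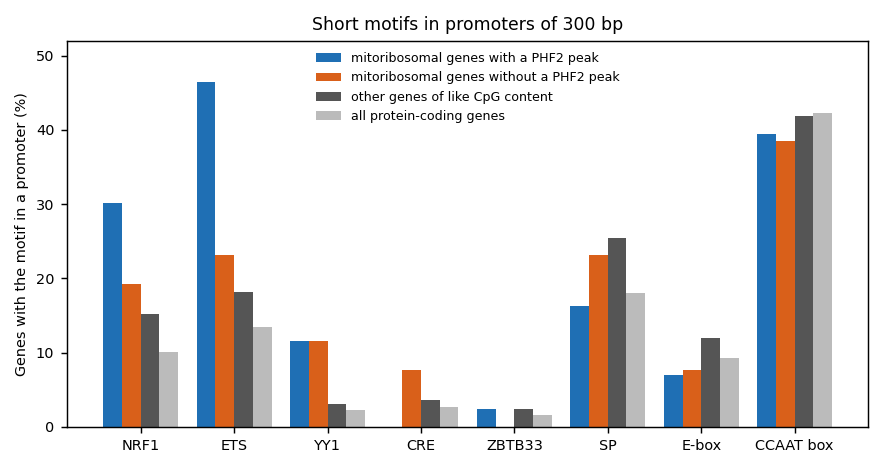
Percentage of genes with each of the 8 motifs in a RefSeq promoter of 300 bp. Bars give mitochondrial ribosomal protein genes with a PHF2 peak (43) and without (26), other genes of like CpG content and all protein-coding genes. For ETS the bars are 46.5%, 23.1%, 18.1% and 13.4%.

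H3K9me2 regions were rare at these promoters, as they were at promoters in general. Of the 78 genes, 2 had one (2.56%), Mrps10 and Mrps35, beside 3.49% of all protein-coding genes and 2.49% of those of like CpG content, which corresponds to 1.95 of 78 genes. The counts are too small to show a difference in either direction. The Mrps10 region (chr17:47369729-47369804) is 76 bp long and its centre lies 879 bp downstream of the 5′-most start. The Mrps35 region (chr6:147044141-147044213) is 73 bp long, the minimum length in that list, and lies 1413 bp downstream of the 5′-most start and at -418 bp from, that is upstream of, an alternative one. Both genes, which encode small-subunit proteins, also had a PHF2 peak, with scores of 161 and 354. Neither region overlaps that peak, and the gaps are 160 bp and 543 bp. No gene of the family thus had both called on the same bases.

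Genes that act with the mitochondrial ribosome had PHF2 peaks in comparable shares. Among other proteins of the ribosome whose genes have different names, 4 of 5 had a peak, namely Gadd45gip1 (score 285), Dap3 (174), Aurkaip1 (142) and Chchd1 (128), and Ptcd3 had none. Of the genes for ribosome assembly 13 of 23 had one (56.5%; like CpG content, 40.1%), with the highest scores at the rRNA methyltransferase gene Mrm3 (339.8), Mettl15 (312), Noa1 (297) and Malsu1 (278). Of the genes for translation factors and related proteins 10 of 16 had one (62.5%; like, 45.8%). The highest scores were at the initiation factor gene Mtif2 (432), the RNA-binding protein gene Slirp (315), Gfm2 (303) and Guf1 (258). The elongation factor gene Tufm, the release factor genes Mtrf1 and Mtrf1l, Mrrf, Mtfmt and Mtif3 had none. Oxidative phosphorylation genes had a peak in 46 of 85 cases (54.1%; like, 41.8%), with a median score of 208. That list was taken by symbol and holds genes of alternative isoforms without a peak, such as Cox4i2, Cox6a2, Cox7a1 and Cox8b. Atp5o is entered in it with a peak and again without one. Cytosolic ribosomal protein genes stood higher than all these, with 77 of 84 (91.7%, 95% Wilson interval 83.8% to 95.9%), beside 50.1% of genes of like CpG content. Their median score was 318, and 81.8% of their peaks lay in the higher-scoring 50%. That list was also taken by symbol, and its 7 genes without a peak were Rpl10l, Rpl36, Rpl39, Rpl39l, Rpl3l, Rps25 and Rps27rt. The Wilson interval covers counting error only, and no test against the mitochondrial ribosomal protein genes was run. None of these 5 lists had an H3K9me2 region at a promoter, beside 3.49% of all protein-coding genes. At that share, lists of this size are too small to show a difference.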

How the data were processed

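Each PHF2 peak carries 1 score as deposited. MACS, run in Galaxy, made the list, per the file headers. Its version, control and settings are not given in the sources used here, nor is the caller of the H3K9me2 regions. For those regions a p threshold is part of the list's name alone, and the score column is 0 throughout. Bowtie2 and mm10 are named in the submitters' processing notes. On chromosomes 1 to 19 and X lay all 5992 PHF2 peaks and 36111 of the 36171 regions. Depth is unknown.

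From these lists, overlaps with windows of 1000 bp on either side of GENCODE M21 transcript starts were computed with Python 3.11.15, pandas 2.3.3 and numpy 2.4.6. CpG observed/expected was computed over the pooled windows and cut into 10 deciles. The share of like genes is that of other genes per decile, weighted by the family. Promoter sequences came from RefSeq (GRCm38.p6) and all 32619 equalled the genome. The counting code was tested on simulated data. Intervals are 95% Wilson intervals.

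Named were all genes without a peak, the 10 highest and 5 lowest scores, divergent pairs with a shared peak, and genes with H3K9me2 within 10 kb. From other lists, genes without a peak or up to 4 with the highest scores were named, and both for the shortest lists. The pairs without a peak and the gene of each motif count were named after their values were seen. The genes and lists were chosen with earlier results of these data known.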

Additional observations from a re-analysis of the deposited data

How the results depend on the processing

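Of 77 alternatives, 56 left the value within a factor of 1.5 of the main one, 19 moved it farther without a change of sign and 2 reversed its sign. The number of mitochondrial ribosomal protein genes with a PHF2 peak was 48 with windows of 500 bp or 2 kb, with peak centres and with protein-coding transcripts only, 51 with 5 kb and 45 with the 5′-most start alone. It fell to 16 in the higher-scoring 50% of peaks and to 1 in the higher-scoring 10%, and was 24 when only peaks at no other coding gene counted. In the higher-scoring 50%, where 14.9% of all protein-coding genes had a peak, the counts were 12 of 51 in the large and 4 of 26 in the small subunit. They were 5 of 46 with a bacterial homologue and 11 of 31 mitochondrion-specific. For related lists they were 4 of 16 for translation factors and related proteins, 6 of 23 for assembly and 1 of 5 for other ribosome proteins. Oxidative phosphorylation had 16 of 85 and cytosolic ribosomal proteins 63 of 84.

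The difference of 15.1 points from genes of like CpG content was 28.7 with GC content, -4.39 in the higher-scoring 50% and -3.83 in the higher-scoring 10% of peaks, and 11.7 to 19.7 in the other settings. The cause of the reversal was not tested. The median peak centre was 141 bp downstream with the 5′-most start alone. Genes with H3K9me2 numbered 7 within 2 kb and 10 within 5 kb, beside 6.93% and 15.3% of all genes, and 1 either with regions longer than the minimum or with the 5′-most start. With protein-coding transcripts only, 499 genes in all (2.29%) had a region, and the family still 2. ZBTB33 letters were in 2 genes with a longer promoter window.

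The settings that counted only peaks at no other gene, used the higher-scoring 10% for the difference, split CpG classes by partner, took the CpG-richest window, or took the 5′-most start or protein-coding transcripts for both peaks and CpG were chosen after seeing the data, as were those that left out Mrps36, or Mrps28 and Mrpl33, moved Mrps18a and Mrps18b to the bacterial-type genes, or added overlapping 5′ ends. No paired analysis was possible because each group had 1 sample. Depth and the spread between cultures are unknown.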

Other observations

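H3K9me2 regions away from the promoters lay in or near few mitochondrial ribosomal protein genes. The nearest region lay at a median of 36330 bp from a start (304 to 556157 bp), beside 31367 bp over all protein-coding genes. It lay within 10 kb for 12 of 78 genes (15.4%), beside 25.2%. After Mrps10 and Mrps35 the closest were Mrpl52 (1407 bp), Mrps5 (1522 bp), Mrpl17 (1546 bp), Mrpl48 (1724 bp) and Mrps28 (1766 bp), followed by Mrpl14 (2867 bp), Mrpl33 (2947 bp), Mrpl50 (4729 bp), Mrpl47 (9290 bp) and Mrpl55 (9486 bp). Mrpl48 thus had the highest PHF2 score of the family and an H3K9me2 region 1724 bp from a start.

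Within gene bodies, 9 of the 78 genes held a region (11.5%), beside 24.2% of all protein-coding genes. The 20 regions lay in Mrps28 (6), Mrpl33 (4), Mrpl1 (3), Mrpl48 (2) and 1 each in Mrpl14, Mrpl17, Mrps6, Mrps10 and Mrps35. The genes of the family are short, with a median body of 7.90 kb beside 17.4 kb. Per length of gene body they held 18.3 regions per Mb, beside 13.0 over all genes. The density rested on Mrps28 and Mrpl33, which held 10 of the 20 regions, and without them it was 11.1 regions per Mb. These 2 genes were picked for holding the most regions, and none were left out of the value over all genes. The 11.1 and the 13.0 are thus not on the same measure. The longest genes of the family were Mrps28 (122 kb), Mrps27 (70.8 kb), Mrpl33 (67.5 kb) and Mrpl48 (62.6 kb), of which Mrps27 held no region.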
